A study of Mus musculus with 6 samples.

Results

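Neuronal and neural crest genes were examined in whole mouse fetal livers that lost the transcription factor gene Gata4 under a Cre driven by Stab2. The list holds 30 genes of neurons, autonomic precursors and crest-derived glia, listed by symbol and not by a threshold on their values. It was nevertheless chosen with earlier results of these data known. All 30 were measured, each on 1 feature, among 23279 genes on the arrays.

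Total RNA of whole livers from embryonic day 11.5 was hybridised to Affymetrix arrays. Of the 6 arrays, 3 held livers labelled Stab2Cre;Gata4 knockout, given elsewhere in the labels as Stab2-Cre;Gata4 fl/fl. The other 3 held control livers labelled Stab2Cre;Gata4 heterozygous. Both groups came from crosses of Stab2-Cre tg/wt;Gata4 fl/wt with Gata4 fl/fl mice carrying the Gata4tm1.1Sad allele. By their label the controls carry the Cre and a floxed allele of Gata4 too, so the comparison is with partial loss and not with wild type. The Stab2 promoter acts in sinusoidal endothelium, whereas the RNA is that of all liver cells. The replicates are called biological, but the sources used here do not say whether an array held the liver of a single embryo or of several.

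Neural crest cells leave the dorsal neural tube and form the sensory, sympathetic and enteric ganglia, their glia and the chromaffin cells of the adrenal medulla. Crest cells that enter the foregut depend on the receptor tyrosine kinase Ret with its co-receptor Gfra1, which together bind the ligand Gdnf secreted by gut mesenchyme. In autonomic precursors Phox2a helps to switch on the noradrenergic enzymes Th and Dbh, while Sox10, Foxd3 and Erbb3 mark crest cells and the Schwann cell line. Several of these genes also serve other tissues: Isl1 acts in heart progenitors, gut mesenchyme and endocrine pancreas, and neurotrophin and GDNF-family receptors occur in mesenchyme.

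The arrays share 1 distribution of values, with a median of 5.43 on the log2 scale, so they cannot show a change common to most genes. A value below that median may be close to background, and 11 of the 30 genes lay below it in all 6 arrays. Liver RNA dominated every array: albumin (Alb) read 13.33 to 13.51 in knockout livers and 13.38 to 13.51 in control livers. Gata4 did not check the labels, since it read 10.26 to 10.64 in knockout livers and 9.87 to 9.96 in control livers, and where its probes lie relative to the floxed exons is not known here. Sinusoidal Stab2 was lower in knockout livers, at 6.32 to 7.14, than in control livers, at 8.02 to 8.22 ( log2 fold change −1.30, adjusted p = 0.0161, and 0.0554 and 0.0678 without control replicate 2 or 3). Embryo sex was unequal: Xist read 10.31 to 10.71 in the 3 knockout livers, and 10.19 in control replicate 2 against 3.58 and 3.96 in the other controls. Knockout replicate 2 stood apart: in 91 genes (0.391% of all) it lay at least 1 log2 unit above the highest of the other 5 arrays. Each group difference below is therefore given with and without it.

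Of the 30 neuronal and neural crest genes, 3 were higher in knockout than in control livers, 0 were lower and 27 did not pass. The 3 were the neurotrophin receptor gene Ntrk3 (2.11-fold), the co-receptor gene Gfra1 (1.79-fold) and the microtubule-binding gene Dcx (1.77-fold). Among all genes tested the same rule (limma, adjusted p under 0.05) called 3.59% higher and 2.77% lower. At an unadjusted p under 0.05 there were 6 higher and 0 lower, these 3 with Isl1, Crmp1 and Erbb3, against 22.5% of all genes in either direction. Without knockout replicate 2 there were 5, against 20.7%. The share of 22.5% also applies to the unadjusted counts of the lists below. Past the adjusted threshold, the count without knockout replicate 2 was again 3 higher and 0 lower, against backgrounds of 2.67% and 1.29%. The genes were then Ntrk3, Gfra1 and Crmp1. The median log2 fold change over the 30 genes was 0.22, against −0.01 over all genes. Without knockout replicate 2 it was 0.03, and −0.01 over all genes. The difference was above 0 in 22 of the 30 genes, against 48.3% of all genes, and in 16 without knockout replicate 2, against 47.5%. All knockout livers lay above all controls in 5 of the 30 (Ntrk3, Gfra1, Dcx, Crmp1 and Isl1), against 13.0% of all genes, and below them in 0, against 14.3%. In whole tissue, more cells of a type and more RNA per cell cannot be told apart.

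Part of the list set knockout replicate 2 apart from the other arrays, and most of the list did not separate the knockout group from the controls. Each array's difference from the control mean, taken gene by gene on the log2 scale, had a median over the 30 genes of 0.03, 0.61 and 0.04 in knockout replicates 1, 2 and 3, and 0.02, 0.00 and 0.01 in the control replicates. Knockout replicate 2 was the highest of the 6 arrays in 22 of the 30 genes, which was so for 23.3% of all genes. In some of them its lead was small, such as 0.11 for Th, 0.15 for Tubb3 and 0.16 for Ngfr. Knockout replicate 2 lay at least 1 log2 unit above every other array in 7 of the 30, against 0.391% of all genes: Ret, Nefl, Dbh, Map2, Nefm, Isl1 and Crmp1. Just below that gap stood Elavl4 (0.98), Stmn2 (0.95) and Ina (0.93). No other array lay so far above the rest in any of the 30 genes. Over all genes such a gap was seen in 0.0172% and 0.0258% for knockout replicates 1 and 3, and in 0.0172%, 0.0387% and 0.0430% for the control replicates. The list was chosen with earlier results of these data known, and the gap after the values were seen. These shares therefore describe the arrays and are no test of the list.

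**Figure D1:**
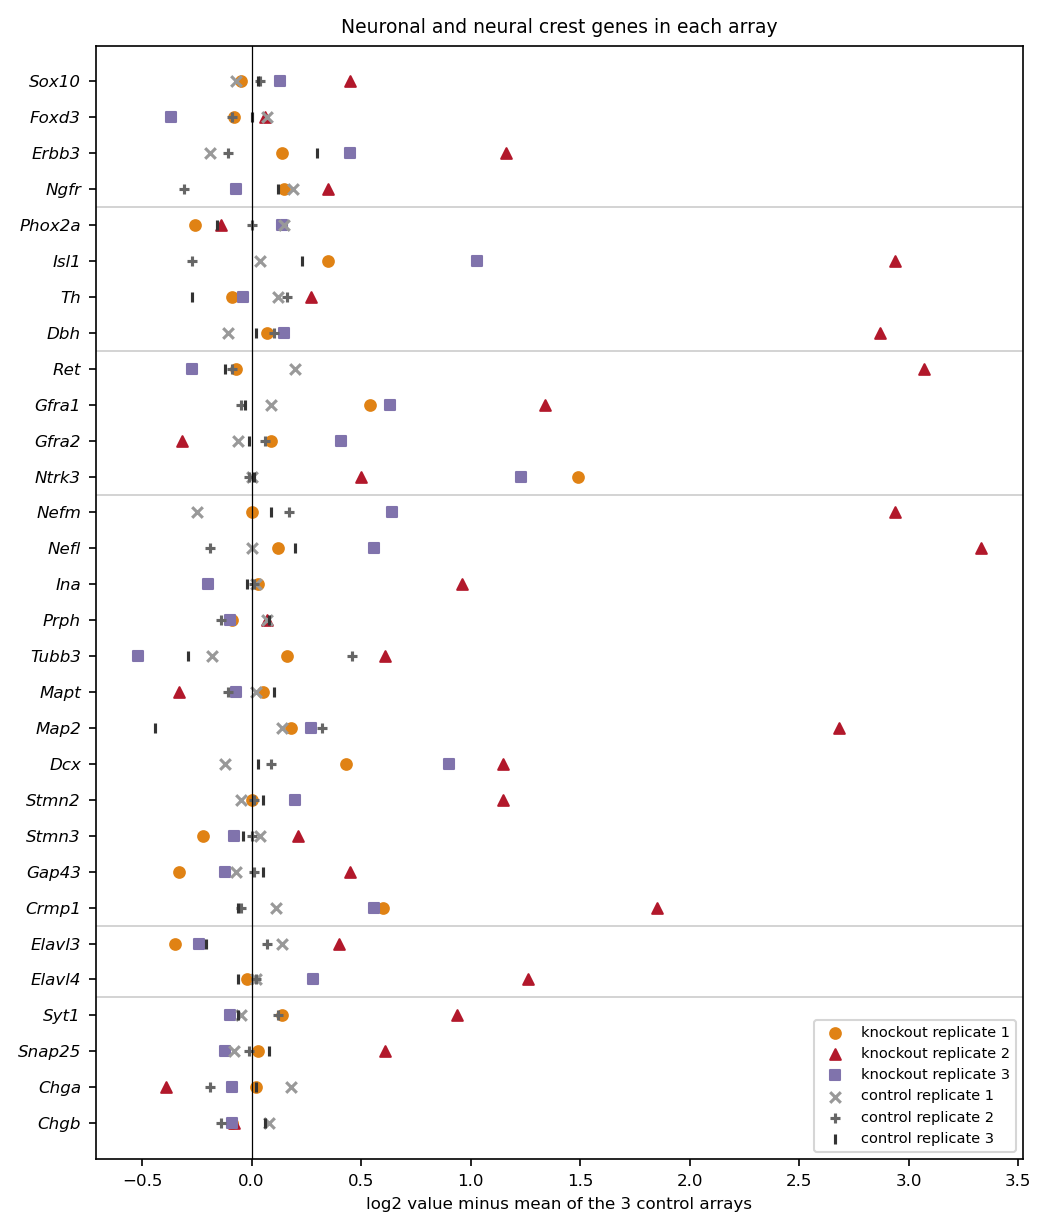
Log2 value of each of the 30 genes minus the mean of the 3 control arrays (horizontal axis), with a symbol for each array; grey lines part crest and glial genes, autonomic genes, receptors, cytoskeletal genes, RNA-binding genes and vesicle genes. Knockout replicate 2 (triangles) is the highest array in 22 genes, and reaches 3.33 for Nefl and 3.07 for Ret.

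Among the neurotrophic receptors, Ntrk3 had the clearest group difference. Ntrk3 encodes TrkC, the receptor of neurotrophin-3. It read 7.20, 6.21 and 6.94 in knockout replicates 1, 2 and 3, against 5.71, 5.70 and 5.72 in the controls. The groups did not overlap, and knockout replicate 2 was the lowest of the knockout livers, the reverse of most of the list. The mean was 6.79 ± 0.51 in knockout livers and 5.71 ± 0.01 in control livers (SD, n = 3 each; log2 fold change 1.07, SE 0.22, adjusted p = 0.0341). Without knockout replicate 2 the difference was 1.36 (2.57-fold, SE 0.11, adjusted p = 0.00712). The call was lost without knockout replicate 1 (adjusted p = 0.0529), knockout replicate 3 (0.106) or control replicate 1, 2 or 3 (0.0882, 0.0989 and 0.119).

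Gfra1, which presents GDNF to Ret, read 9.24, 10.04 and 9.33 in the knockout livers, against 8.79, 8.65 and 8.67 in the control livers. All knockout livers lay above all controls, with replicate 2 the highest. The log2 fold change was 0.84 (SE 0.20, adjusted p = 0.0478), and 0.58 without knockout replicate 2 (SE 0.10, adjusted p = 0.0299). The call was lost without knockout replicate 3 (0.0905) or control replicate 1, 2 or 3 (0.101, 0.135 and 0.154).

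Ret itself, the signalling kinase, was like Gfra1 highest in knockout replicate 2, but unlike Gfra1 it was not above the controls in the other knockout livers. It read 4.49, 7.63 and 4.29 in the knockout livers, against 4.76, 4.47 and 4.44 in the control livers. Knockout replicate 2 exceeded the control mean 8.42-fold, while the other knockout livers lay within or below the control range. The group difference did not pass (0.91, SE 0.77, adjusted p = 0.566), and without knockout replicate 2 it was −0.16 (SE 0.13, adjusted p = 0.573). Gfra2, the co-receptor for neurturin, went the other way in that liver: 7.39, 6.98 and 7.71 in knockout livers, against 7.24, 7.36 and 7.29 in control livers (0.06, adjusted p = 0.892). Without knockout replicate 2 the Gfra2 difference was 0.25 (limma, adjusted p = 0.302).

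The ligands and the remaining receptors of these pathways held 12 measured genes of 15, with a median of 0.16 (0.01 without knockout replicate 2). Of these, 2 were higher, 0 lower and 10 did not pass, against 3.59% higher and 2.77% lower of all genes. Both were ErbB receptors of epithelium and mesenchyme: Egfr (0.80, adjusted p = 0.00932) and Erbb2, the partner of Erbb3 (0.68, adjusted p = 0.0230), and both also passed without knockout replicate 2. Egfr lost its call without control replicate 3 (0.0536). Erbb2 lost its call without knockout replicate 3 (0.0769) or control replicate 1, 2 or 3 (0.0574, 0.0717 and 0.0961), and with the replicate number as a block (0.0538). Gdnf, the ligand of Ret and Gfra1, read 3.21, 4.61 and 3.28 in knockout livers, against 3.19, 3.35 and 3.26 in control livers. Like Ret it was high in knockout replicate 2, though every value lay below the array median.

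**Figure D2:**
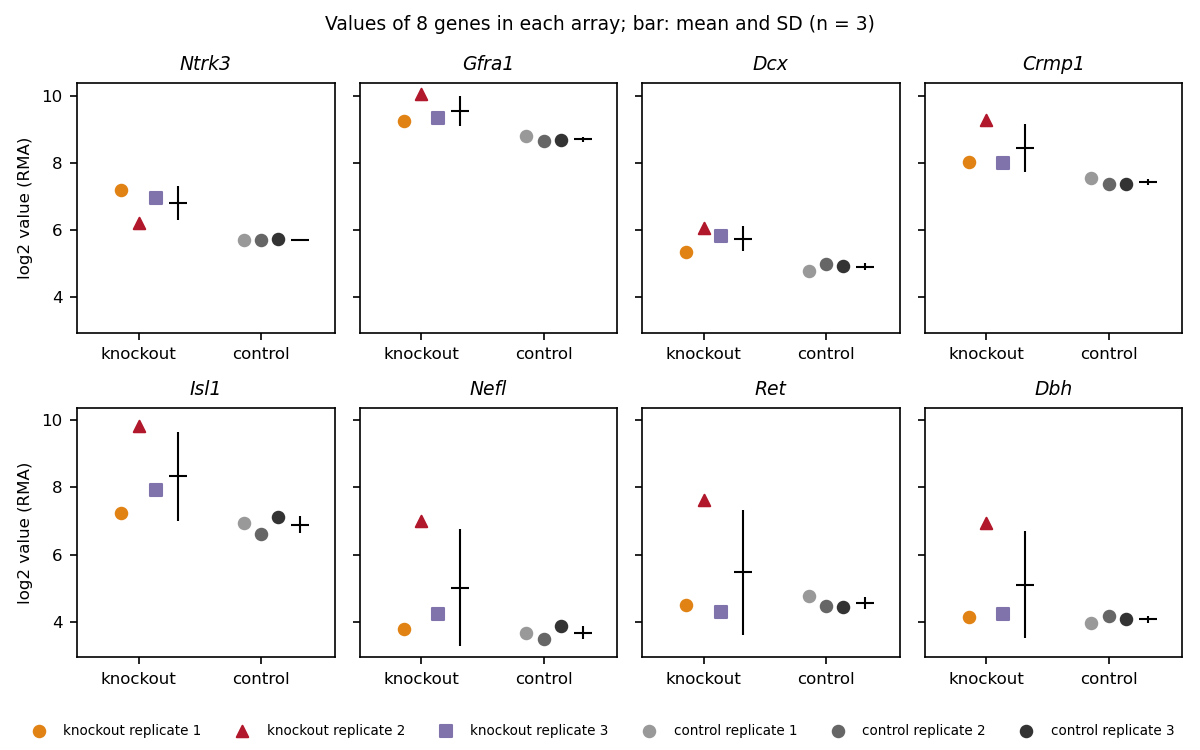
Log2 values of Ntrk3, Gfra1, Dcx and Crmp1 (top) and Isl1, Nefl, Ret and Dbh (bottom) in each array, knockout left and control right, with the mean and SD (n = 3) as a bar. In the top row every knockout array lies above every control array, whereas Nefl, Ret and Dbh are high in knockout replicate 2 (triangle) and near the controls in the other knockout arrays.

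Of the autonomic genes none passed (limma; 1 of 4, Isl1, at an unadjusted p under 0.05), and their values parted sharply within knockout replicate 2. Isl1, a LIM homeodomain factor, read 7.24, 9.83 and 7.92 in knockout livers, against 6.93, 6.62 and 7.12 in control livers. Its groups did not overlap, although knockout replicate 1 lay only 0.12 above the highest control. The difference was 1.44 (2.71-fold, SE 0.56, adjusted p = 0.176), and 0.69 without knockout replicate 2 (1.61-fold, SE 0.22, adjusted p = 0.129). Dbh, which turns dopamine into noradrenaline, read 4.14, 6.94 and 4.22 in knockout livers, against 3.96, 4.17 and 4.09 in control livers. The value in knockout replicate 2 was 7.28-fold the control mean, and the group difference was 1.03 (SE 0.65, adjusted p = 0.421), or 0.11 without that liver (SE 0.11, adjusted p = 0.654).

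Th, the tyrosine hydroxylase that acts upstream of Dbh in the same pathway, showed no such peak. It read 4.10, 4.46 and 4.15 in knockout livers, against 4.31, 4.35 and 3.92 in control livers (0.05, SE 0.15, adjusted p = 0.909). Phox2a, a homeodomain factor upstream of both enzymes, was likewise flat, at 4.08, 4.20 and 4.48 in knockout livers, against 4.49, 4.34 and 4.18 in control livers (−0.08, adjusted p = 0.794). Th and Phox2a stayed below the array median in all 6 arrays.

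Promoter sequences are shown for the enzyme genes Dbh, which peaked in knockout replicate 2, and Th, which did not. They are also shown for Isl1 and Gfra1, which were among the 5 genes whose groups did not overlap. The sequences are the 100 bases upstream of the annotated start on the gene's strand, from RefSeq (GRCm38.p6), in which 19 of the 30 genes had an entry. Capitals mark matches on either strand to TAAT (the core bound by homeodomain factors), to TGACGTCA (the cyclic AMP response element) or to CAGCTG (an E-box of basic helix-loop-helix factors).
Dbh, chr2:27165407-27165506, plus strand: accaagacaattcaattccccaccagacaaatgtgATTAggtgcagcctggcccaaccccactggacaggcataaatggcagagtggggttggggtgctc
Th, chr7:142899996-142900095, minus strand: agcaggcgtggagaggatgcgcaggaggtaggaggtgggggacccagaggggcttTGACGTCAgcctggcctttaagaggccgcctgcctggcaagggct
Isl1, chr13:116309689-116309788, minus strand: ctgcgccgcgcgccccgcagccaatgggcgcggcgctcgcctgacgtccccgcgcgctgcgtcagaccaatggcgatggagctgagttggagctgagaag
Gfra1, chr19:58455399-58455498, minus strand: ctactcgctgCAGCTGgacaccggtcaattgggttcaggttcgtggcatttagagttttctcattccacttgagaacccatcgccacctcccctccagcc

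The Dbh window held 1 TAAT match and no TGACGTCA, and the Th window the opposite. The Isl1 window held none of the motifs, and the Gfra1 window 1 CAGCTG. Of all 32851 promoter windows cut to the same length, 27.3% held TAAT, 1.15% held TGACGTCA and 5.81% held CAGCTG. A match is a run of letters, not a shown binding site. The motifs do not overlap one another in these windows.

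The wider list of ganglion transcription factors had 9 measured genes of 12 (median 0.08, and 0.05 without knockout replicate 2). Of these, 1 was higher, 0 were lower and 8 did not pass, against 3.59% higher and 2.77% lower of all genes. The higher gene was Isl2, the close relative of Isl1. It read 5.85, 6.20 and 5.54 in knockout livers, against 4.91, 4.91 and 5.18 in control livers (limma: 0.86, SE 0.17, adjusted p = 0.0300). All knockout livers lay above the controls, and Isl2 passed without knockout replicate 2 (0.69, adjusted p = 0.0417) or 3 (0.0422). Its call was lost without knockout replicate 1 (0.0529) or control replicate 1, 2 or 3 (0.0834, 0.0949 and 0.0814), and with the replicate number as a block (0.0644). Among 14 genes of transmitter synthesis and transport, 0 were higher and 1 was lower, the vesicular monoamine transporter Slc18a2 (−0.68, adjusted p = 0.0431). Slc18a2 is also made by mast cells and platelets, and it passed in 1 of the 6 fits that leave out an array, not without knockout replicate 2 (adjusted p = 0.0593) or 3 (0.0783) or control replicate 1, 2 or 3 (0.0939, 0.115 and 0.152).

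None of the 4 crest and glial genes passed (limma; 1 of 4, Erbb3, at an unadjusted p under 0.05). Erbb3, the neuregulin receptor of Schwann cell precursors that is also made in liver epithelium, read 6.74, 7.76 and 7.05 in knockout livers, against 6.41, 6.49 and 6.90 in control livers. Knockout replicate 1 fell inside the control range, and the difference was 0.58 (SE 0.25, adjusted p = 0.219), or 0.30 without knockout replicate 2 (adjusted p = 0.402). Sox10, the defining factor of migrating crest and its glia, stayed below the array median everywhere: 4.14, 4.64 and 4.32 in knockout livers, against 4.12, 4.23 and 4.22 in control livers (0.18, adjusted p = 0.519). Foxd3, a forkhead factor of early crest, differed by −0.12 (adjusted p = 0.641) and the low-affinity neurotrophin receptor Ngfr by 0.15 (adjusted p = 0.680).

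In the wider crest list 12 of 14 genes were measured (median 0.24, and 0.10 without knockout replicate 2). Against 3.59% higher and 2.77% lower among all genes, 10 of the list did not pass, 0 were lower and 2 were higher. These were the zinc-finger repressor Snai2 (1.04, SE 0.19, adjusted p = 0.0250) and the chondrogenic and ductal factor Sox9 (0.88, SE 0.18, adjusted p = 0.0336), both of which also act outside the crest. Both passed without knockout replicate 2, with 0.83 for Snai2 (adjusted p = 0.0248) and 0.65 for Sox9 (adjusted p = 0.0219). Snai2 lost its call without knockout replicate 3 (0.0669) or control replicate 2 or 3 (0.0788 and 0.0992). Sox9 lost its call without knockout replicate 3 (0.0689) or control replicate 1, 2 or 3 (0.0767, 0.0989 and 0.122). With the replicate number as a block neither passed (0.0551 for Snai2 and 0.0549 for Sox9). Sox2, a factor of crest glia and of foregut epithelium, read 3.85, 6.02 and 3.97 in knockout livers, against 3.86, 3.96 and 4.04 in control livers. It stood out in knockout replicate 2 alone.

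Among the filament genes, the differences of Nefl and Nefm rested on knockout replicate 2. Nefl, the light chain, read 3.79, 7.0 and 4.23 in knockout livers, against 3.67, 3.48 and 3.87 in control livers, so that replicate 2 lay 3.33 log2 units above the control mean. Nefm, the medium chain, read 4.16, 7.10 and 4.80 in knockout livers, against 3.91, 4.33 and 4.25 in control livers. Neither passed: the difference was 1.33 for Nefl (SE 0.72, adjusted p = 0.333) and 1.19 for Nefm (SE 0.64, adjusted p = 0.331), and without knockout replicate 2 it was 0.33 for Nefl (adjusted p = 0.315) and 0.32 for Nefm (adjusted p = 0.454). Ina, the internexin subunit of the same filaments, read 5.23 in knockout replicate 2 and 4.07 to 4.30 in the other 5 arrays. Nefh, the heavy chain, which is not among the 30 genes, did not share the peak and read 5.53, 5.61 and 5.89 in knockout livers, against 5.74, 5.94 and 5.81 in control livers (−0.15, adjusted p = 0.530). Prph, the filament protein of peripheral neurons, did not share it either and read 4.03 to 4.20 in knockout livers and 3.99 to 4.21 in control livers.

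Of the 8 microtubule and growth cone genes, Dcx passed with all arrays and Crmp1 without knockout replicate 2. Dcx, the doublecortin of migrating neurons, read 5.33, 6.05 and 5.80 in knockout livers, against 4.78, 4.99 and 4.93 in control livers. The groups did not overlap (0.83, SE 0.18, adjusted p = 0.0357), and without knockout replicate 2 the difference was 0.66 (1.58-fold, SE 0.15, adjusted p = 0.0598). Dcx lies on the X chromosome, and control replicate 2, whose Xist level was that of the knockout livers, read 4.99. The call was also lost without knockout replicate 3 (adjusted p = 0.108) or control replicate 1, 2 or 3 (0.102, 0.0893 and 0.120).

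Crmp1, which relays semaphorin signals to the cytoskeleton, read 8.03, 9.28 and 7.99 in knockout livers, against 7.54, 7.38 and 7.37 in control livers. Every knockout liver lay above every control. With knockout replicate 2 the spread among knockout livers was wide and the difference did not pass (1.01, SE 0.31, adjusted p = 0.101). Without it the difference was smaller and passed (0.58, SE 0.10, adjusted p = 0.0304).

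Map2, the dendritic microtubule protein, read 6.46, 8.96 and 6.55 in knockout livers, against 6.42, 6.60 and 5.84 in control livers, and its 6.39-fold excess over the control mean in knockout replicate 2 was absent from the other knockout livers (1.04, adjusted p = 0.372, and 0.22 without it, adjusted p = 0.640). Stmn2, a tubulin-binding protein of growth cones, read 5.84 in knockout replicate 2 and 4.64 to 4.89 in the other arrays (0.45, adjusted p = 0.376). The remaining members showed little. Gap43, the growth cone phosphoprotein, averaged 7.76 ± 0.40 in knockout livers and 7.76 ± 0.06 in control livers (SD, n = 3 each). Without knockout replicate 2 its difference was −0.22 (limma, adjusted p = 0.315). Stmn3 differed by −0.03, the neuronal tubulin Tubb3 by 0.09 and the axonal protein Mapt by −0.12 (adjusted p = 0.932, 0.909 and 0.649). Tubb3, among the broadest markers of young neurons, read 4.41 in knockout replicate 2 and 4.26 in control replicate 2, both below the array median.

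A further 15 genes of the neuronal cytoskeleton and axon growth had a median of 0.16 (0.01 without knockout replicate 2). Against 3.59% higher and 2.77% lower among all genes, 12 of them did not pass, 0 were lower and 3 were higher. They were the imprinted gene Nnat (0.89, SE 0.10, adjusted p = 0.00932), the adhesion molecule Ncam1 (0.76, SE 0.11, adjusted p = 0.0128) and the microtubule protein Map1b (0.69, SE 0.13, adjusted p = 0.0246). Nnat read 10.53, 10.58 and 10.32 in knockout livers, against 9.66, 9.58 and 9.52 in control livers, with no peak in knockout replicate 2. All 3 passed without that liver too, with differences of 0.83 for Nnat, 0.76 for Ncam1 and 0.72 for Map1b. Nnat lost its call without control replicate 3 (0.0536), and Ncam1 without knockout replicate 3 (0.0516) or control replicate 3 (0.0584). Map1b lost its call without knockout replicate 3 (0.0821) or control replicate 1 or 3 (0.0624 and 0.0735), and with the replicate number as a block (0.0544).

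**Figure D3:**
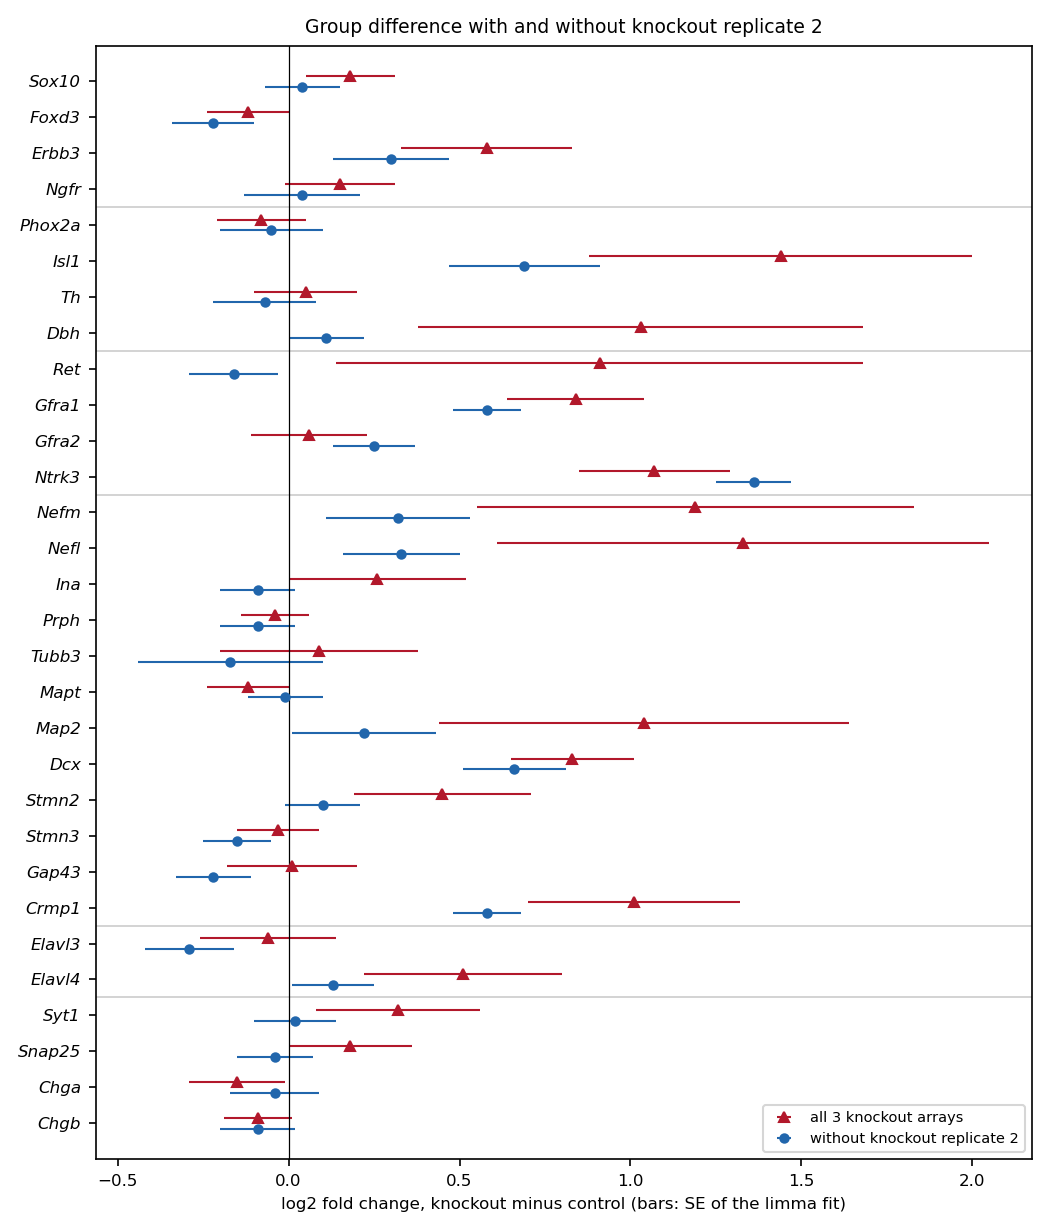
Log2 fold change of each gene, knockout minus control, with all 3 knockout arrays (triangles) and without knockout replicate 2 (circles); bars are standard errors of the limma fit. Ret, Dbh, Nefl, Nefm and Map2 lose most of their difference without that array, while Ntrk3, Gfra1, Dcx and Crmp1 keep 0.58 or more. Isl1 falls from 1.44 to 0.69.

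The RNA-binding and vesicle genes did not differ past the threshold (limma; 0 of 6 also at an unadjusted p under 0.05). Elavl4, an RNA-binding protein of postmitotic neurons, read 5.09 in knockout replicate 2 and 3.77 to 4.11 in the other arrays (0.51, adjusted p = 0.351). Its relative Elavl3 differed by −0.06 (adjusted p = 0.905), and by −0.29 without knockout replicate 2 (limma, adjusted p = 0.259). Syt1, the calcium sensor of synaptic vesicles, read 5.78 in knockout replicate 2 and 4.74 to 4.98 elsewhere (0.32, adjusted p = 0.502). Snap25, a subunit of the vesicle fusion complex, read 5.15 there and 4.42 to 4.62 elsewhere (0.18, adjusted p = 0.648). The granule proteins Chga (−0.15, adjusted p = 0.601) and Chgb (−0.09, adjusted p = 0.684) showed no peak in that liver, where they read 4.63 and 3.62. Of 12 further synapse and granule genes 0 passed (limma; 1 at an unadjusted p under 0.05), with a median of 0.08.

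Genes of neighbouring organs were set beside these values. In the list of gut, lung and pancreas endoderm and its mesenchyme, 11 of 12 genes were measured and 0 passed (limma; 1 at an unadjusted p under 0.05). In knockout replicate 2, however, 3 lay at least 1 log2 unit above every other array, against 0.391% of all genes. Barx1, a homeobox factor of stomach mesenchyme, read 7.95, 10.70 and 8.41 in knockout livers, against 7.80, 7.85 and 7.52 in control livers. Glucagon (Gcg) read 7.78 in knockout replicate 2 and 5.25 to 5.75 elsewhere, and the gut epithelial signal Shh 6.56 and 3.76 to 5.01. The pancreatic Pdx1 and the intestinal Cdx2 showed no peak, with 4.96 and 4.88 in that liver. The other 8 genes had no such gap, and the list's median over control was −0.13, 0.02 and −0.06 in knockout replicates 1, 2 and 3. Its summed linear value, in arbitrary array units and carried mostly by Barx1 in knockout replicate 2, was 512, 2188 and 603 in knockout livers, against 505, 499 and 448 in control livers.

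In the urogenital list, Osr1, which is also a foregut mesenchyme factor, read 11.63 in knockout replicate 2 and 7.55 to 9.02 elsewhere, and Six2 read 7.82 and 5.54 to 6.0. The other 6 genes had no such gap, which 0.391% of all genes had. The list's median over control was 0.08, 0.26 and −0.06 in knockout replicates 1, 2 and 3. The sum over its 8 genes, carried mostly by Osr1 in knockout replicate 2, was 540, 3578 and 748 in knockout livers, against 390, 621 and 506 in control livers, and 0 passed (limma; 1 at an unadjusted p under 0.05). Brain and spinal cord progenitor genes had no peak in any liver: their sum over 11 genes was 237, 235 and 254 in knockout livers, against 243, 252 and 256 in control livers, and 0 passed (limma; 0 at an unadjusted p under 0.05). Heart muscle genes peaked in other arrays, with sums of 896, 982 and 3831 in knockout livers, against 1532, 4749 and 939 in control livers. None of 12 heart and 8 skeletal muscle genes passed (limma; 1 in each list at an unadjusted p under 0.05). The part of these other tissues in the neuronal values was not tested.

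**Figure D4:**
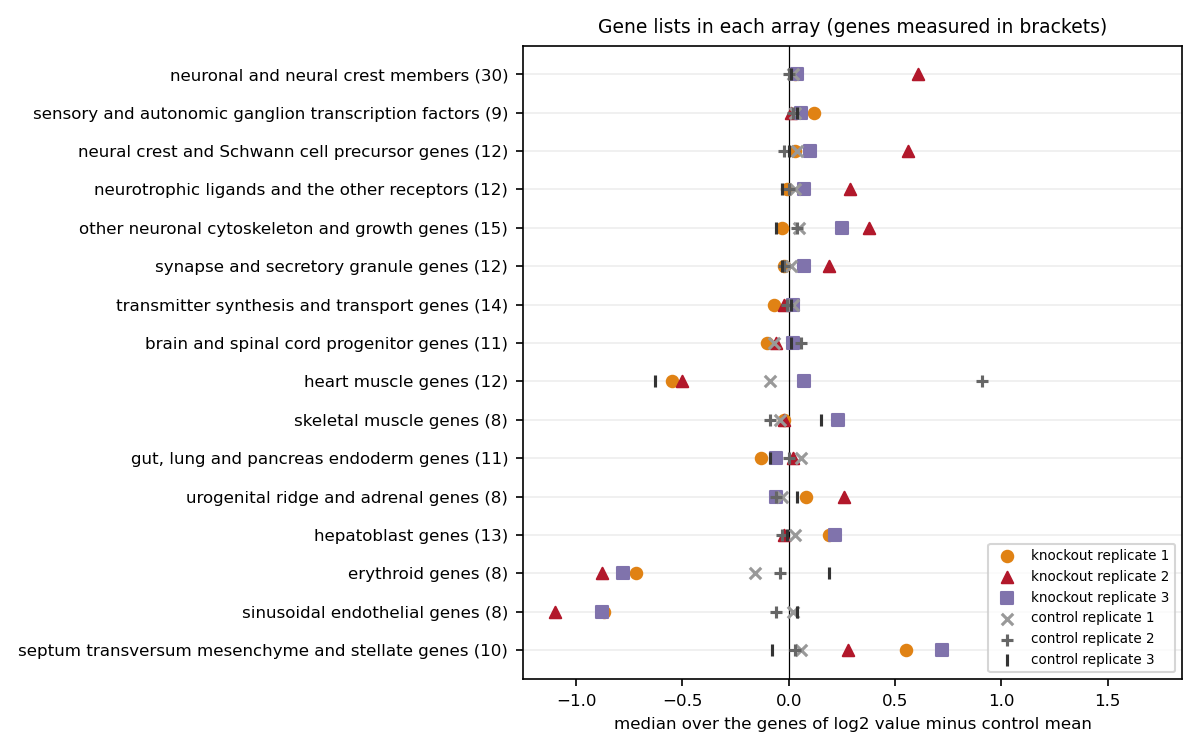
Median over each gene list of the log2 difference from the mean of the control arrays, by array, with the number of measured genes in brackets. The neuronal and neural crest genes reach 0.61 in knockout replicate 2 and stay between 0.00 and 0.04 elsewhere, while erythroid and sinusoidal genes part all knockout from all control arrays.

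Marker genes of some liver cell types also differed between the groups. In the list of septum transversum mesenchyme and stellate cells 4 of 10 genes were higher, 0 lower and 6 did not pass (5 higher and 0 lower without knockout replicate 2). The 4 include the targeted gene Gata4 itself (0.51, adjusted p = 0.0409), which passed in 1 of the 6 fits that leave out an array. Its median over control was 0.55, 0.28 and 0.72 in knockout replicates 1, 2 and 3, lowest in replicate 2. Ntrk3 was likewise lowest there among the knockout livers, whereas Gfra1, Dcx and Crmp1 were highest there. Hand2, a basic helix-loop-helix factor of this mesenchyme and of sympathetic neurons, read 8.59, 8.52 and 8.68 in knockout livers, against 8.04, 7.89 and 7.73 in control livers (0.71, adjusted p = 0.0160). Hand2 lost its call without knockout replicate 3 (0.0580) or control replicate 2 or 3 (0.0530 and 0.0684). Of 8 erythroid genes 4 were lower and 0 higher, with a median log2 fold change of −0.77 (3 lower without knockout replicate 2). Of 8 sinusoidal endothelial genes 5 were lower and 0 higher, with a median of −0.95 (5 lower without knockout replicate 2). Among all genes 3.59% were higher and 2.77% lower, and 2.67% and 1.29% without knockout replicate 2. Of 13 hepatoblast genes 0 passed (limma; 2 at an unadjusted p under 0.05), and 3 were higher without knockout replicate 2; their median over control was 0.19, −0.02 and 0.22 in the knockout livers. The part of these liver cell types in the values of Ntrk3, Gfra1, Dcx and Crmp1 was not tested.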

How the data were processed

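Whole livers of embryonic day 11.5 were measured on 6 arrays, 3 knockout and 3 control. The deposited log2 values were made by the authors with RMA, as the submitters' processing notes state without a version. The sources used here give neither chip type nor settings. Sorted values were identical in all 6 arrays, as after quantile normalisation. Columns without a sample numbered 0. Of 24479 features 23281 were named through the platform annotation, 23156 with the symbol of a RefSeq gene table (GRCm38.p6), and where a name had a pair of features the brighter was kept (2 cases).

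Knockout minus control was fitted by lmFit and eBayes (limma 3.58.1, R 4.3.3) over the 23279 genes, with Benjamini-Hochberg adjustment and a threshold of 0.05, without a filter on dim genes or covariates. The residual degrees of freedom were 4, to which the moderated variance added 4.06. The fit was also run on simulated data with independent noise for each gene, no outlying array and no sex difference. That run therefore does not bear on the effects of knockout replicate 2 or of sex. Standard errors are those of the fit, and the number of arrays limits the precision. An exact permutation test of 3 against 3 was not used, since it cannot pass the threshold.

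The 30 genes and the other lists were chosen with earlier results of these data known. Every gene of the 30 is named. Of the other lists, genes were named for the smallest p (up to 4), a peak in knockout replicate 2, or as lineage markers; those named for a peak, or for its absence (Pdx1, Cdx2, Nefh), were chosen after their values were seen, as was the gap of 1 log2 unit. Replicate numbers did not pair the arrays: deviations of same-numbered arrays correlated at −0.05, −0.01 and −0.08. Alternatives were each array left out, the replicate block, a variance trend, robust fitting, array weights, filters on dim genes, other scalings, a sex term and a looser threshold.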

Additional observations from a re-analysis of the deposited data

How the results depend on the processing

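The count of 3 higher genes among the 30 was 0 to 3 when any 1 array was left out (3 without knockout replicate 2, 0 without knockout replicate 3 or without any control), 0 with a sex term and 1, Ntrk3, after centring on hepatoblast genes. That centring moved the median of all genes to −0.16, and the median of the 30 genes was then 0.07. Under the other fits 2 or 3 passed. No member was lower in any fit. The median of 0.22 was 0.03 to 0.44 with 1 array left out, 0.71 over the 10 genes left when the dimmest 50% were dropped, and 0.23 against control replicate 2 alone, an alternative chosen after seeing the data. Control replicate 2 was the only control with the Xist level of the knockout livers. Under the sex term each difference is therefore that of the knockout livers against this 1 control, and the median was again 0.23. Over all genes 1480 passed, against 41 to 1395 with 1 array left out, 3 with a sex term, 2700 at an adjusted p of 0.1 and 686 with the replicate block, under which Ntrk3 (0.0479) and Dcx (0.0374) passed and Gfra1 (0.0715) did not. With the sex term the differences of Ntrk3, Gfra1 and Dcx were 1.09, 0.89 and 0.74 (adjusted p = 0.249, 0.273 and 0.292). Of 429 values of single genes under these settings, 20 were lost calls of Gfra1 (7), Dcx (7) and Ntrk3 (6), 1 was a call gained by Crmp1, 5 moved by over 1 SD and 0 reversed a call. Fits with fewer arrays or more terms have fewer residual degrees of freedom. The fits that leave out 1 array are alike in this, and they passed 41 to 1395 genes. The cause of the lost calls was not tested. Signal over background was not used here, so the genes below the array median may not have been measurable.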

Other observations

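The genes that stood furthest above all other arrays in knockout replicate 2, ranked over all 23279 genes after the values were seen, included 6 of the 30 neuronal and neural crest genes among the first 20: Ret, Nefl, Dbh, Map2, Nefm and Isl1. The rest of the 20 were Slitrk6, Cxcl13, Hpse2, Penk, Col12a1, Osr1, Barx1, Fam171b, Hoxb5, Foxf2, Gcg, Mira, Sox2 and Abi3bp. The first of all was Slitrk6, a neuronal membrane protein, which read 7.96 in knockout replicate 2, against 4.04 and 4.43 in the other knockout livers and 3.62 to 4.13 in control livers. The opioid precursor Penk read 8.38 there, against 5.50 and 5.26 in the other knockout livers and 4.75 to 5.44 in control livers. The chemokine Cxcl13 read 9.45 there, against 5.60 and 5.93 in the other knockout livers and 5.55 to 5.86 in control livers. Hoxb5, a homeobox factor of gut mesenchyme and enteric crest, read 8.10 there, against 5.34 and 5.91 in the other knockout livers and 5.52 to 5.56 in control livers. Outside the first 20, the nicotinic receptor subunit Chrna3 of autonomic neurons read 6.10 there, against 4.78 and 4.56 in the other knockout livers and 4.10 to 4.29 in control livers. None of these 5 passed the group test, with adjusted p (limma) of 0.353 for Slitrk6 and Penk, 0.458 for Cxcl13, 0.441 for Hoxb5 and 0.160 for Chrna3. The forkhead gene Foxf1, also outside the first 20, read 10.86 in knockout replicate 2. It read 9.51 and 9.75 in the other knockout livers and 9.02 to 9.24 in control livers, and did not pass either (limma, adjusted p = 0.124). For Chrna3 and Foxf1 all knockout livers lay above all controls, as in 13.0% of all genes. Without knockout replicate 2 their differences were 0.46 and 0.51 (limma, adjusted p = 0.0734 and 0.0622). Both were named after their values were seen, whereas Th, Phox2a, Prph and Chga had no such peak.

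Neuropeptide Y (Npy), of sympathetic and enteric neurons, was higher in control replicates 1 and 3 (7.27 and 8.06) than in the other arrays, with 5.31, 6.94 and 5.89 in knockout livers and 5.87 in control replicate 2. Control replicates 1 and 3 are also the arrays with low Xist. The difference did not pass (limma: −1.02, adjusted p = 0.350). With a sex term it was 0.17, which sets the knockout livers against control replicate 2 alone. Among the arrays with high Xist Npy ranged from 5.31 to 6.94. The part of sex in these values was not tested. Npy was chosen after its values were seen.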
